A study of Mus musculus with 9 samples.

Results

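The genes described here are *Phgdh*, *Psat1*, *Psph*, *Shmt2*, *Mthfd2*, *Mthfd1l*, *Aldh18a1*, *Pycr1*, *Asns* and *Cth*, which encode enzymes of serine, mitochondrial one-carbon, proline, asparagine and cysteine synthesis. They were chosen by name for their roles, with earlier results of these data known. All 10 were among the 13834 genes with enough counts to test, of 53077 genes listed. RNA was sequenced from 5TGM1, a mouse multiple myeloma line, and every culture expressed Cas9 and carried a gRNA vector. In the control gRNA group the guide targeted the Rosa26 locus, in the *Slc2a1* gRNA group it targeted the gene for the glucose transporter GLUT1, and in the *Slc2a1/3/5/6/8* gRNA group 5 *Slc2a* genes were targeted. For the last group *Slc2a3*, *Slc2a5*, *Slc2a6* and *Slc2a8* were edited beforehand in a separate line that was sorted and grown out, and the *Slc2a1* gRNA was added to it later, so the effect of the added guides and that of this separate history cannot be told apart. Each of the 3 groups held 3 biological replicates. The edited cultures were mixed pools and not clones, and by the study's methods some cells in them kept GLUT1. The comparisons ask how the transcripts of these enzymes differ where GLUT1 alone, or a set of sugar transporters, has been targeted.

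Serine is made from the glycolytic intermediate 3-phosphoglycerate by PHGDH, PSAT1 and PSPH in turn. SHMT2 then moves a carbon of serine onto folate in the mitochondrion, and MTHFD2 and MTHFD1L carry that carbon on to formate, which leaves for the cytosol to be used in nucleotide synthesis. ALDH18A1 and PYCR1 make proline from glutamate, ASNS makes asparagine from aspartate and glutamine, and CTH releases cysteine from cystathionine. Several of these genes are known targets of the transcription factor ATF4, which is translated more when amino acids are short or the endoplasmic reticulum is stressed. Plasma cells and myeloma cells secrete or retain large amounts of antibody protein, and the demand for amino acids in such cells is high.

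ATF4 binds with C/EBP partners to a composite element, and the core TGATGNAA of that element was searched on both strands of the 250 bases before the RefSeq start (GRCm38.p6) of each gene. A window was held for 9 of the 10 genes, and *Cth* had none. The core was found in 2 of those 9, which is 22.2%, against 2.62% of the 9871 tested genes with a window and 3.45% of all 32851 windows. The E-box CACGTG, a different motif that does not overlap the core, was found in 1 of 9, against 9.86% of tested genes and 6.02% of all windows. The matches are shown with 11 bases on each side because they show each motif in its setting before the RefSeq start, and capitals mark the match. A match is only a run of letters, and its use by a factor was not measured.
Asns: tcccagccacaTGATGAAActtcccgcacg
Pycr1: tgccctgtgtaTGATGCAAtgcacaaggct
Aldh18a1: gagggggccgcCACGTGgagcgtgggcg
The *Asns* stretch lies on the minus strand at chr6:7693214-7693243, with the core 23 to 16 bases before the RefSeq start. That stretch lies inside the gene as GENCODE M21 draws it, since the GENCODE start is further upstream. The *Pycr1* stretch is at chr11:120643833-120643862 on the minus strand, with the core 103 to 96 bases before the start. The *Aldh18a1* stretch is at chr19:40588506-40588533 on the minus strand, and its E-box lies 59 to 54 bases before the start. The windows of *Phgdh*, *Psat1*, *Psph*, *Shmt2*, *Mthfd2* and *Mthfd1l* held neither run of letters.

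The 10 genes lie on 6 chromosomes in GENCODE M21 (GRCm38). The serine genes *Phgdh*, *Psat1* and *Psph* lie at chr3:98313170-98339990, chr19:15904678-15947337 and chr5:129765558-129787449. *Shmt2* is at chr10:127517123-127522444, *Mthfd2* at chr6:83305691-83325908 and *Mthfd1l* at chr10:3973118-4167081. *Aldh18a1* is at chr19:40550257-40588463, *Pycr1* at chr11:120635712-120643769, *Asns* at chr6:7675169-7693254 and *Cth* at chr3:157894248-157925077. *Mthfd1l* is on the plus strand and the other 9 are on the minus strand. Exons of *Psph* overlap those of *Cct6a* on the opposite strand over 10.4% of their bases, and exons of *Shmt2* overlap *Ndufa4l2* over 1.03%. Whether reads were counted by strand is not given in the sources used here, so the part of the *Psph* counts that comes from *Cct6a* cannot be told apart.

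The libraries held from 21838805 to 30537105 estimated counts, of which mitochondrial genes took 4.84 to 11.1%. Of 6 plasma cell markers, *Xbp1* (384 to 568 TPM), *Irf4* (88.9 to 154 TPM) and *Sdc1* (50.4 to 109 TPM) were abundant in every sample, while *Tnfrsf17* was between 0.07 and 1.36 TPM. *Jchain*, the joining chain of secreted antibody, differed between the groups without overlap, at 52.3 to 58.5 TPM in control samples, 14.2 to 26.1 TPM with the *Slc2a1* gRNA and 69.2 to 97.5 TPM with the 5 gRNAs. Of 4 macrophage markers only *Cd68* passed 1 TPM, with a summed level of the 4 of 57.0 to 97.4 TPM in control samples, 31.1 to 47.2 TPM with the *Slc2a1* gRNA and 33.3 to 44.1 TPM with the 5 gRNAs. The part of *Jchain* and *Cd68* in the results was not tested, and *Csf1r* was at or under 0.04 TPM throughout. Among the targeted genes, *Slc2a1* transcript was at -0.21 ± 0.18 on the log2 scale (SE; adjusted p = 0.544, edgeR) with the *Slc2a1* gRNA and fell by 0.66 ± 0.18 on the log2 scale (adjusted p = 0.029, edgeR) with the 5 gRNAs. An edited gene can still be transcribed, so the transcript level does not measure the loss of the protein. RNA from a whole culture was measured, so fewer cells that express a gene and less RNA per cell cannot be told apart.

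Transcripts of all 10 enzymes were present in control gRNA-transduced cells, over a 13.4-fold range of mean TPM, a unit that corrects for gene length and library size. *Phgdh*, the first enzyme of serine synthesis, stood at 288 ± 22.2 TPM (SD, n = 3), with 263, 298 and 303 TPM in replicates 1, 2 and 3. *Shmt2* was at the same level, 287 ± 18.1 TPM (SD, n = 3), and the replicates of both genes overlapped. *Psat1*, which makes phosphoserine, followed at 203 ± 6.69 TPM (SD, n = 3), below every control replicate of *Shmt2*. *Psph*, the last enzyme of that path, was at 49.4 ± 6.38 TPM (SD, n = 3). The serine genes thus lay far apart, with the final phosphatase the lowest of them.

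*Asns* was at 157 ± 6.86 TPM (SD, n = 3), below *Psat1* and above *Cth* in every control replicate. *Cth* (103 ± 9.2 TPM), *Mthfd2* (93.7 ± 6.75 TPM) and *Pycr1* (81.8 ± 8.39 TPM; SD, n = 3 for each) formed a run in which neighbours overlapped. *Aldh18a1* at 54.1 ± 3.34 TPM (SD, n = 3) overlapped *Psph*, and both lay below *Pycr1*. *Mthfd1l* was the lowest of the 10, at 21.5 ± 1.95 TPM (SD, n = 3). Among the folate enzymes of the mitochondrion the order was therefore *Shmt2*, then *Mthfd2*, then *Mthfd1l*, with no overlap between them in the control samples.

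**Figure D1:**
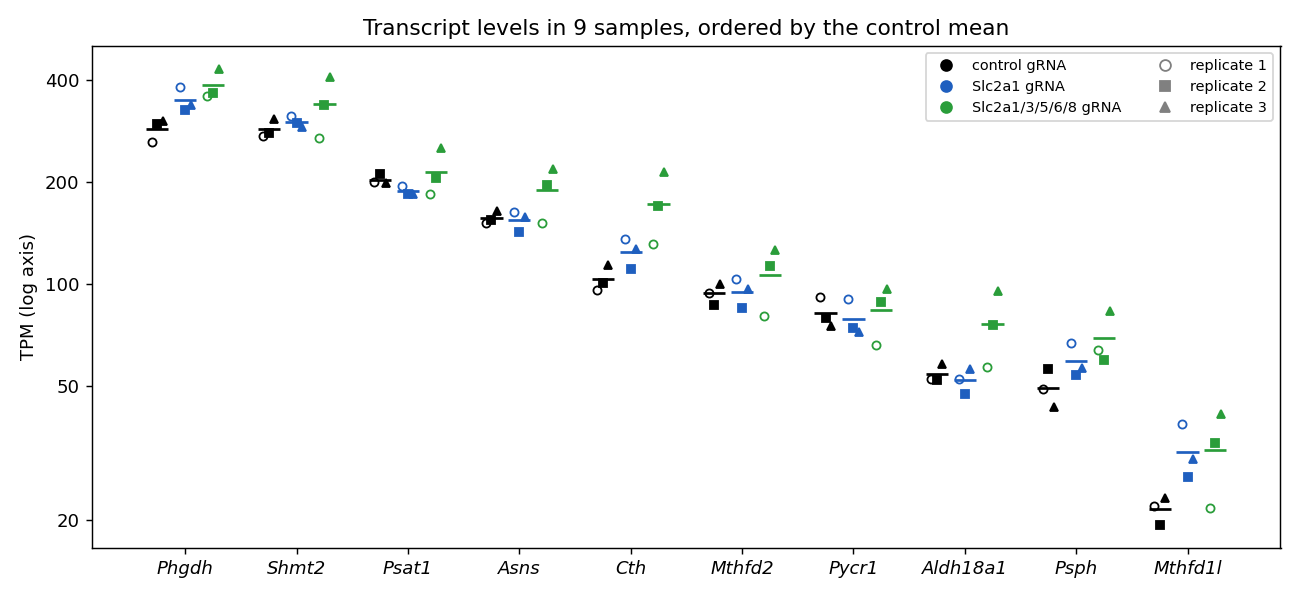
TPM of the 10 genes in each of 9 samples, on a log axis, with genes ordered by their control mean. Points are replicates (open circle 1, square 2, triangle 3) and short lines are group means. The highest point of each of the 10 genes is replicate 3 of the *Slc2a1/3/5/6/8* gRNA group, and *Mthfd1l* is lowest in every group.

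Paralogs of these enzymes were present at different levels. Cytosolic *Shmt1* was at 20.3 ± 3.85 TPM and cytosolic *Mthfd1* at 21.1 ± 3.12 TPM in control samples (SD, n = 3). *Shmt1* was far below mitochondrial *Shmt2*, and *Mthfd1* was level with mitochondrial *Mthfd1l*. *Mthfd2l*, a mitochondrial relative of *Mthfd2*, was at 0.148 ± 0.0174 TPM (SD, n = 3), and no sample had more than 21 estimated counts of it. *Cbs*, which makes the cystathionine that CTH cleaves, was at 0.102 ± 0.0684 TPM (SD, n = 3), and its estimated counts lay between 5.02 and 23 in the 9 samples. *Cth* was thus abundant where the gene for the step before it was near the limit of detection. *Pycrl*, the older symbol of *Pycr3*, was at 34.9 ± 2.23 TPM (SD, n = 3), below *Pycr1*. Neither *Mthfd2l* nor *Cbs* had an adjusted p under 0.05 in any comparison by edgeR.

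The summed TPM of the 10 genes was 1292, 1337 and 1387 in control replicates 1, 2 and 3. It was 1542, 1351 and 1409 with the *Slc2a1* gRNA, and 1386, 1649 and 1971 with the 5 gRNAs. Replicate 1 of the 5-gRNA group therefore lay within the control range on the TPM scale, while replicates 2 and 3 lay above every other sample. In that replicate 1, mitochondrial genes held 24.4% of all TPM, against 15.3 and 14.3% in replicates 2 and 3 and 11.3 to 18.8% in control samples. A single short gene, *mt-Atp8*, with an effective length of 21.1 bases there, accounted for 11.3% of the TPM of that sample. As a share of estimated counts, the 10 genes took 0.342, 0.334 and 0.383% in the 5-gRNA samples, all above the control samples at 0.274, 0.296 and 0.268%. The *Slc2a1* gRNA samples had 0.336, 0.313 and 0.296%, of which replicate 3 was level with control replicate 2.

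**Figure D2:**
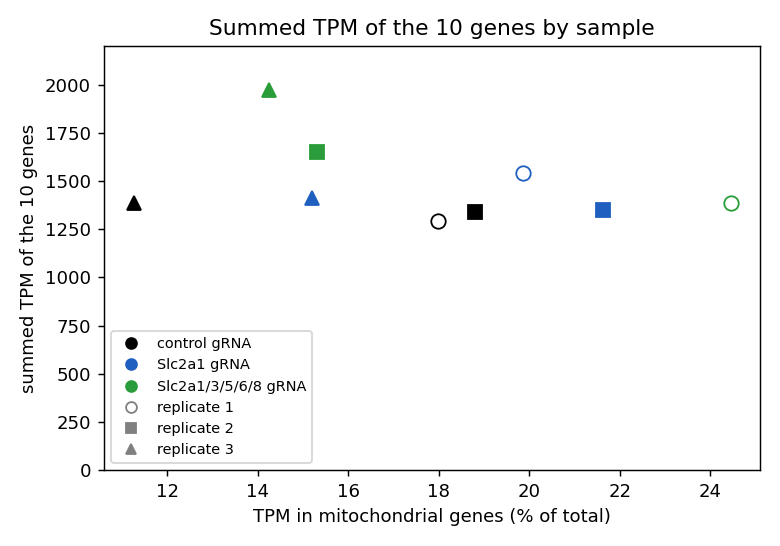
Summed TPM of the 10 genes (vertical axis, from 0) against the percent of TPM held by 37 mitochondrial genes (horizontal axis), 1 point per sample. Replicate 1 of the 5-gRNA group has the highest mitochondrial share, 24.4%, and a sum of 1386 TPM, beside 1649 and 1971 TPM in the other two.

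The comparisons between groups therefore rest on CPM, the estimated counts divided by library size and scaled by edgeR's TMM factors, which do not divide by gene length and are not compared between genes. A gene was called where edgeR's quasi-likelihood test gave a Benjamini-Hochberg adjusted p under 0.05 over all 13834 genes. Replicate number was a block in the fit, and errors of log2 fold changes are standard errors.

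With the 5 gRNAs, 5 of the 10 enzymes rose against the control gRNA, namely *Cth*, *Mthfd1l*, *Psph*, *Aldh18a1* and *Phgdh*, and 0 fell. Over all genes tested 8.49% were called higher and 15.9% were called in either direction. Changes were modest, between 1.40-fold for *Phgdh* and 1.73-fold for *Cth* among the 5 called. Fitted changes were above 0 for all 10 genes, with a median log2 fold change of 0.43, where 50.8% of all genes tested were above 0 and their median was 0.01. In TMM-scaled CPM, 7 of the 10 had all 3 samples above all 3 control samples, which was true of 17.0% of all genes. On TPM this held only for *Phgdh*, *Psph* and *Cth*, and the share of all genes was not computed on that scale.

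Several calls were lost when a sample was left out, which also left fewer samples for the test. Without control replicate 1, control replicate 3 or 5-gRNA replicate 3, 1 of the 10 genes was called each time, and that gene was *Cth*. The share of all genes called in those fits was 4.45, 5.16 and 6.13%, and the median log2 fold change of the 10 was 0.35, 0.37 and 0.30, all lower than with every sample. Without control replicate 1 or control replicate 3, the log2 fold change of *Mthfd1l* was 0.65 and 0.62 and that of *Aldh18a1* was 0.54 and 0.50, close to the 0.64 and 0.53 with every sample. In the same fits *Phgdh* was at 0.36 and 0.48, against 0.48 with every sample, and *Psph* was at 0.48 and 0.37, against 0.54. Without 5-gRNA replicate 3 the values of *Mthfd1l*, *Aldh18a1*, *Phgdh* and *Psph* were 0.48, 0.42, 0.43 and 0.34.

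*Cth* had the largest change of the 10. Its CPM was 168, 184 and 171 in control samples, 262, 225 and 221 with the *Slc2a1* gRNA, and 291, 279 and 337 with the 5 gRNAs. The 3 groups did not overlap, and the 5-gRNA samples were highest. The log2 fold change with the 5 gRNAs was 0.79 ± 0.12 (adjusted p = 0.00167, edgeR), a 1.73-fold rise with a 95% interval of 1.45 to 2.08. In 20 of 21 alternative settings it was still called, the exception being a cutoff that asked for a fitted change of at least 2-fold. In the *Slc2a1* gRNA group its value of 0.44 ± 0.12 (adjusted p = 0.0598, edgeR) did not pass, although all 3 samples lay above the control samples.

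Of the serine synthesis genes, *Phgdh* and *Psph* were called with the 5 gRNAs and *Psat1* was not, and the difference between genes was not tested. *Phgdh* had 498, 595 and 495 CPM in control samples, 785, 724 and 635 CPM with the *Slc2a1* gRNA and 847, 642 and 732 CPM with the 5 gRNAs. Every sample of both edited groups was above every control sample. The rise with the 5 gRNAs was 0.48 ± 0.13 on the log2 scale (adjusted p = 0.0299, edgeR), and the value with the *Slc2a1* gRNA was 0.43 ± 0.13 (adjusted p = 0.0856, edgeR). The call with the 5 gRNAs held in 13 of 21 alternative settings, and without 5-gRNA replicate 1 the log2 fold change was 0.39 (adjusted p = 0.0618, edgeR). *Psph* had 84.1, 99.5 and 61.0 CPM in control samples, 123, 107 and 93.2 CPM with the *Slc2a1* gRNA and 134, 93.3 and 126 CPM with the 5 gRNAs. Its groups overlapped, since control replicate 2 lay above 5-gRNA replicate 2. Its rise with the 5 gRNAs was 0.54 ± 0.17 on the log2 scale (adjusted p = 0.0457, edgeR), a call that held in 7 of 21 alternative settings, and without the replicate block the adjusted p was 0.0663. *Cct6a*, whose exons overlap it, had a log2 fold change of 0.55 in the same comparison (adjusted p = 0.014, edgeR).

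*Psat1* was not called in either comparison with control. It had 507, 570 and 444 CPM in control samples, 566, 560 and 484 CPM with the *Slc2a1* gRNA and 596, 504 and 594 CPM with the 5 gRNAs. The groups overlapped, although control replicate 3 was the lowest of the 9 samples and 5-gRNA replicates 1 and 3 were the highest. The log2 fold change was 0.08 ± 0.13 (adjusted p = 0.760, edgeR) with the *Slc2a1* gRNA and 0.16 ± 0.13 (adjusted p = 0.417, edgeR) with the 5 gRNAs. The direction in the *Slc2a1* gRNA group turned under other scalings, to -0.01 with total count normalization and to -0.11 on log2(TPM + 1), but these scalings moved the median of all genes to -0.10 and -0.11, so that *Psat1* stayed above it with the former and level with it on the latter. The interval with the 5 gRNAs, 0.92- to 1.36-fold, does not show that it was unchanged.

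Among the mitochondrial one-carbon genes the least abundant had the largest fitted change, and the difference between genes was not tested. *Mthfd1l*, which releases formate, had 85.3, 77.2 and 78.8 CPM in control samples, 165, 121 and 119 CPM with the *Slc2a1* gRNA, and 106, 124 and 143 CPM with the 5 gRNAs. In CPM all 6 edited samples lay above the control samples, while on TPM 5-gRNA replicate 1, at 21.7, lay among them. It rose by 0.74 ± 0.15 on the log2 scale with the *Slc2a1* gRNA (adjusted p = 0.0192, edgeR) and by 0.64 ± 0.15 with the 5 gRNAs (adjusted p = 0.0136, edgeR). These calls held in 11 and 13 of 21 alternative settings but in no limma fit on TPM. On log2(TPM + 1) the values were 0.54 (adjusted p = 0.260, limma) and 0.52 (adjusted p = 0.219, limma). Replicate 1 was the highest of the *Slc2a1* gRNA samples, and without it the log2 fold change was 0.55 (adjusted p = 0.109, edgeR).

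*Shmt2* had 522, 575 and 504 CPM in control samples, 699, 680 and 577 CPM with the *Slc2a1* gRNA and 684, 647 and 753 CPM with the 5 gRNAs. Neither edited group overlapped the control samples, although *Slc2a1* gRNA replicate 3 was level with control replicate 2. With the *Slc2a1* gRNA *Shmt2* was at 0.29 ± 0.12 on the log2 scale (adjusted p = 0.192, edgeR) and at 0.07 on log2(TPM + 1). Its log2 fold change of 0.38 ± 0.12 with the 5 gRNAs just missed the threshold (adjusted p = 0.0526, edgeR), and it passed in 8 of 21 alternative settings, among them the fit without the replicate block (adjusted p = 0.0451, edgeR). *Mthfd2*, the step between *Shmt2* and *Mthfd1l*, had 198, 191 and 180 CPM in control samples and 209, 213 and 235 CPM with the 5 gRNAs, a log2 fold change of 0.21 ± 0.11 (adjusted p = 0.225, edgeR). The *Slc2a1* gRNA samples had 234, 208 and 198 CPM, with replicate 3 level with control replicate 1.

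**Figure D3:**
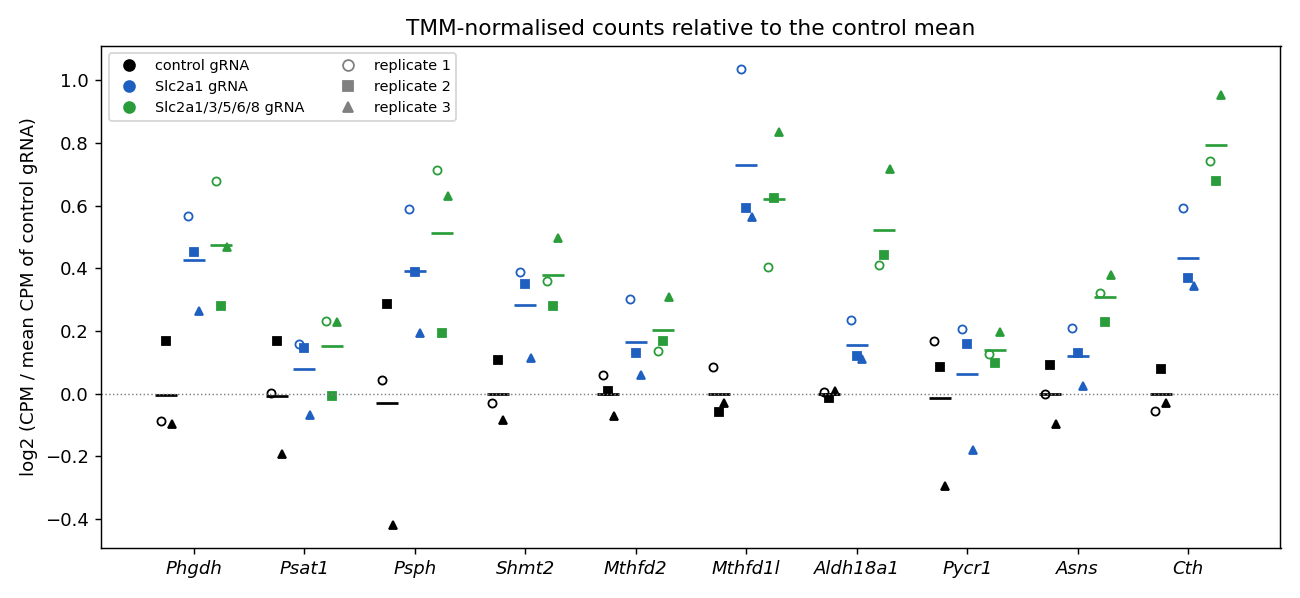
Log2 of the TMM-scaled CPM of each sample over the mean CPM of the control samples, for the 10 genes. Points are replicates and short lines are means of the points. *Cth*, *Mthfd1l*, *Phgdh*, *Aldh18a1*, *Shmt2* and *Mthfd2* show both edited groups above the control samples, the last 2 narrowly with the *Slc2a1* gRNA. The points of *Psat1*, *Psph* and *Pycr1* overlap, as do those of *Asns* for control and the *Slc2a1* gRNA.

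Of the proline genes, *Aldh18a1* was called with the 5 gRNAs and *Pycr1* was not, and the difference between them was not tested. *Aldh18a1*, which makes the glutamate semialdehyde from which proline forms, had 175, 174 and 176 CPM in control samples, the tightest control values of the 10 genes. It had 206, 190 and 189 CPM with the *Slc2a1* gRNA and 232, 238 and 288 CPM with the 5 gRNAs, so that the groups did not overlap and the 5-gRNA samples were the highest. With the 5 gRNAs the rise was 0.53 ± 0.11 on the log2 scale (adjusted p = 0.00971, edgeR). The call held in 14 of 21 alternative settings but in no limma fit on TPM, with 0.45 on log2(TPM + 1) (adjusted p = 0.130, limma). In the *Slc2a1* gRNA group the fitted change was 0.16 ± 0.11 (adjusted p = 0.448, edgeR), and on log2(TPM + 1) it was -0.06. *Pycr1*, the enzyme of the final step, had 149, 141 and 108 CPM in control samples, 153, 148 and 117 CPM with the *Slc2a1* gRNA and 145, 142 and 152 CPM with the 5 gRNAs. Its samples overlapped in all groups, and its log2 fold change with the 5 gRNAs was 0.16 ± 0.12 (adjusted p = 0.411, edgeR).

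*Asns* had 303, 323 and 283 CPM in control samples, 350, 331 and 308 CPM with the *Slc2a1* gRNA and 379, 355 and 394 CPM with the 5 gRNAs. In CPM the 5-gRNA samples lay above all others. On TPM 5-gRNA replicate 1, at 151.4, was below the control samples at 151.7, 154.0 and 164.5. The log2 fold change with the 5 gRNAs was 0.31 ± 0.11, an interval of 1.05- to 1.47-fold, and did not pass after adjustment (adjusted p = 0.0742, edgeR), while DESeq2 called it (adjusted p = 0.0274). The value with the *Slc2a1* gRNA was 0.12 ± 0.11 (adjusted p = 0.560, edgeR), and on log2(TPM + 1) it was -0.02.

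Where *Slc2a1* alone was targeted, 1 of the 10 genes rose, *Mthfd1l*, and 0 fell, where 2.25% of all genes were called higher and 4.64% in either direction. All 10 fitted changes were above 0, with a median log2 fold change of 0.23 beside -0.00 for all genes, of which 49.8% were above 0. On log2(TPM + 1) the values of *Psat1*, *Aldh18a1*, *Pycr1* and *Asns* were below 0, and with total count normalization those of *Psat1* and *Pycr1* were. The median of all genes moved to -0.11 and -0.10 under these scalings, and each of these values other than that of *Psat1* on TPM lay above it. The TPM of *Psat1* was below all 3 control samples, and with mitochondrial genes left out of the TPM total the groups overlapped (244, 235 and 218 against 244, 260 and 224 TPM). In TMM-scaled CPM, 6 of the 10 had all 3 samples above all 3 control samples, against 13.2% of all genes. On TPM this held only for *Phgdh* and *Mthfd1l*, and the share of all genes was not computed on that scale. The call of *Mthfd1l* was lost without control replicate 1, 2 or 3, or without *Slc2a1* gRNA replicate 1 or 2, with 0 members called in each of those fits and at most 0.507% of all genes called. Its log2 fold change was 0.76, 0.75 and 0.72 without control replicate 1, 2 and 3, 0.55 without *Slc2a1* gRNA replicate 1 and 0.80 without replicate 2, so only without *Slc2a1* gRNA replicate 1 was it clearly smaller than 0.74. Without the replicate block 2 genes were called, *Mthfd1l* and *Cth* (adjusted p of *Cth* = 0.0496, edgeR), with 3.86% of all genes called.

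Both of these comparisons share the control samples, so their values are not independent of each other. Set directly against the *Slc2a1* gRNA group, the 5-gRNA group showed 0 of the 10 genes called in either direction, where edgeR called 1.36% of all genes higher and 2.31% in either direction. At an unadjusted p under 0.05, edgeR found 2640 genes, or 19.1% of all tested, and 2 of the 10 members, *Aldh18a1* and *Cth*, a share near that of all genes. *Aldh18a1* was at 0.37 ± 0.11 on the log2 scale (adjusted p = 0.104, edgeR) and an interval of 1.09- to 1.53-fold, and DESeq2 called it (adjusted p = 0.0316). *Cth* had 0.36 ± 0.12 (adjusted p = 0.131, edgeR) with an interval of 1.07- to 1.54-fold. The other eight were nearer 0, from -0.11 ± 0.15 for *Mthfd1l* to 0.19 ± 0.11 for *Asns*. In TMM-scaled CPM, 3 of the 10 (*Aldh18a1*, *Asns* and *Cth*) had all 3 samples above all 3 of the *Slc2a1* gRNA group, against 10.6% of all genes. On TPM this held only for *Aldh18a1*. Without 5-gRNA replicate 3 the median log2 fold change of the 10 went from 0.09 to -0.03. A difference between the edited groups was therefore not detectable for these genes at this depth and replication by edgeR, and the intervals do not exclude one.

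**Figure D4:**
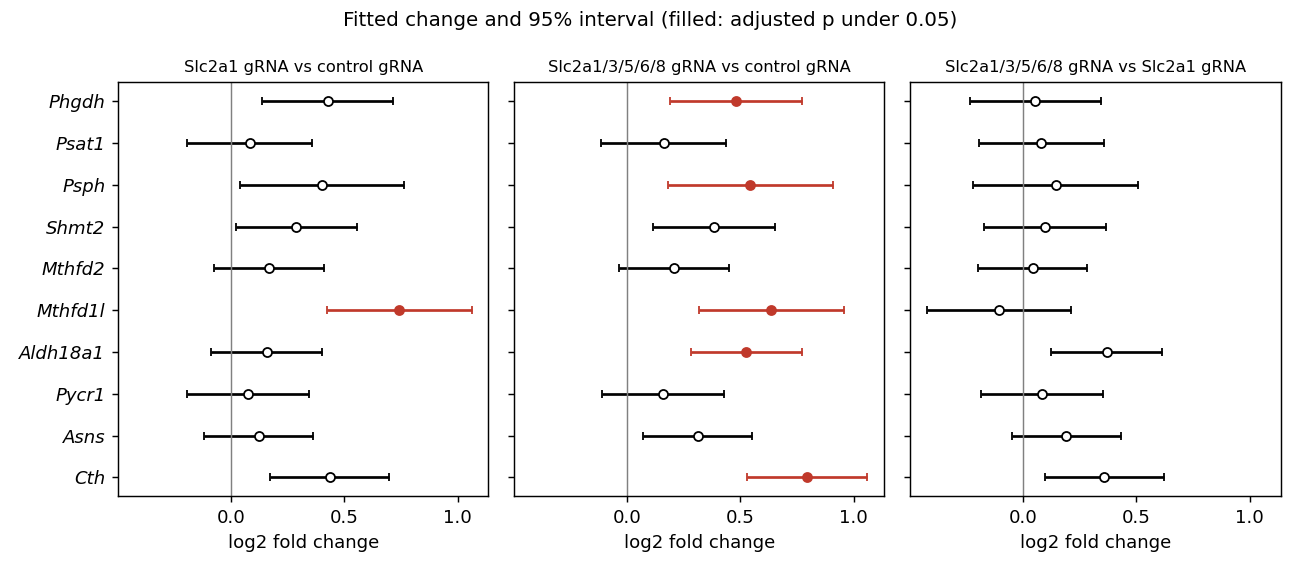
Fitted log2 fold change of the 10 genes in 3 comparisons, with 95% intervals from edgeR's quasi-likelihood fit; filled red points have an adjusted p under 0.05. There is 1 such gene in the left panel, 5 in the middle panel and 0 in the right panel.

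Across the 9 samples the members' TMM-scaled levels moved together to different degrees. Over the 45 pairs of genes, Pearson's r of log2 CPM had a median of 0.790 and lay between 0.415 and 0.942. These points share libraries and depth, and the values are a description. The mean of the 10 genes, centred by gene, was lowest in control replicate 3 (-0.36) and highest in 5-gRNA replicate 3 (0.29). The genes outside the pathway lists most like this mean, among 8241 with a mean of at least 5 TPM, were *Top1mt* (r = 0.981), *Cct6a* (r = 0.978), *Phf10* (r = 0.977), *Trp53* (r = 0.973) and *Cct4* (r = 0.972), over 9 samples. *Cct6a* is the neighbour whose exons overlap *Psph*.

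Counts over the wider pathway lists are to be read beside the shares of all genes called higher and in either direction, 8.49 and 15.9% with the 5 gRNAs and 2.25 and 4.64% with the *Slc2a1* gRNA. Of 12 tested serine and glycine genes 4 rose and 0 fell with the 5 gRNAs, with a median log2 fold change of 0.26. They were *Phgdh*, *Psph*, *Shmt1* (0.48 ± 0.12, adjusted p = 0.0168, edgeR) and *Dld*, the dihydrolipoamide dehydrogenase shared by glycine cleavage and other complexes (0.55 ± 0.11, adjusted p = 0.00774, edgeR). The calls of *Phgdh* and *Psph* were lost without control replicate 1, control replicate 3 or 5-gRNA replicate 3, so this count depends on single samples. With *Phgdh*, *Psat1*, *Psph* and *Shmt2* set aside, the median of the other 8 genes was -0.16. Of 15 folate genes 5 rose and 0 fell, with a median of 0.29. Beside *Mthfd1l* and *Shmt1* they included *Mthfd1*, the cytosolic trifunctional enzyme (0.39 ± 0.12, adjusted p = 0.0394, edgeR), and *Slc25a32*, a mitochondrial folate carrier (0.44 ± 0.12, adjusted p = 0.0309, edgeR). Against control, the *Slc2a1* gRNA group had *Shmt1* higher by the same 0.48 ± 0.12 (adjusted p = 0.036, edgeR) and *Tyms*, which makes thymidylate, higher by 0.73 ± 0.15 (adjusted p = 0.022, edgeR). Of the serine and glycine genes 1 was then higher, and of the folate genes 3.

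In the methionine cycle and transsulfuration list, 3 of 16 genes rose with the 5 gRNAs and 0 fell, where 8.49% of all genes were called higher, and the median was -0.06, beside 0.79 for *Cth*. *Mat2a*, which makes S-adenosylmethionine, rose by 0.99 ± 0.19 (adjusted p = 0.00536, edgeR) and *Mtrr*, which reactivates methionine synthase, by 0.41 ± 0.11 (adjusted p = 0.0276, edgeR). Under the *Slc2a1* gRNA, where 2.25% of all genes were higher, 2 of the 16 rose, *Mat2a* by 0.98 ± 0.19 (adjusted p = 0.0175, edgeR) and *Mat2b* by 0.45 ± 0.12 (adjusted p = 0.048, edgeR). Of the named genes of that list, *Mat2a* had the largest change in both comparisons. Of 10 proline, ornithine and glutamate genes, *Aldh18a1* rose and *Oat*, ornithine aminotransferase, fell by 0.49 ± 0.11 on the log2 scale (adjusted p = 0.00958, edgeR) with the 5 gRNAs, which is 2 of 10 beside 15.9% of all genes called in either direction. *Pycrl* was at 0.23 ± 0.13 on the log2 scale there (adjusted p = 0.230, edgeR). None of the 10 was called with the *Slc2a1* gRNA by edgeR.

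Of 9 aspartate and asparagine genes 4 rose and 0 fell with the 5 gRNAs, against 8.49% of all genes called higher, with a median of 0.31, and *Asns* was not among them. They were *Ass1*, argininosuccinate synthase (1.01 ± 0.12, adjusted p = 0.000364, edgeR), and the aminoacyl-tRNA synthetases *Dars* (0.54 ± 0.11, adjusted p = 0.00659), *Nars* (0.56 ± 0.13, adjusted p = 0.0161) and *Nars2* (0.43 ± 0.13, adjusted p = 0.045, all edgeR). *Ass1* also rose with the *Slc2a1* gRNA, by 1.04 ± 0.12 (adjusted p = 0.00386, edgeR), the 1 call of that list there. The TPM of *Ass1* was 14.2 ± 3.16 in control samples, 26.7 ± 2.22 with the *Slc2a1* gRNA and 27.3 ± 4.33 with the 5 gRNAs (SD, n = 3 for each).

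The ATF4 circuit list held other targets, kinases and partners of ATF4 and none of the 10 enzymes. With the 5 gRNAs 19 of its 26 tested genes rose and 0 fell, where 8.49% of all genes were called higher. Its median log2 fold change was 0.70 and that of the 10 enzymes was 0.43, and the difference between the lists was not tested. *Atf4* itself rose by 0.44 ± 0.12 (adjusted p = 0.0248, edgeR). *Stc2*, a secreted stress-induced glycoprotein, rose by 1.70 ± 0.10 (adjusted p = 3.97e-06, edgeR), and *Slc1a4*, a transporter of alanine, serine and cysteine, by 1.13 ± 0.10 (adjusted p = 9.22e-05, edgeR). *Nupr1*, a stress-induced chromatin protein, rose by 0.97 ± 0.10 (adjusted p = 0.00018, edgeR) and *Ddit4*, an inhibitor of mTORC1 signalling, by 1.12 ± 0.12 (adjusted p = 0.000204, edgeR). The changes of *Stc2*, *Slc1a4*, *Nupr1* and *Ddit4* were each larger than the 0.79 of *Cth*. These genes were picked for the smallest adjusted p of their list in this comparison, so their size does not describe the list.

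In the *Slc2a1* gRNA group 4 of the 26 rose and 1 fell, beside 4.64% of all genes called in either direction, the list's median log2 fold change was 0.20 beside 0.23 for the 10 enzymes, and *Atf4* was at 0.11 ± 0.12 on the log2 scale (adjusted p = 0.613, edgeR). *Ddit4* (1.11 ± 0.12, adjusted p = 0.0033), *Stc2* (0.70 ± 0.10, adjusted p = 0.00698) and *Atf5* (0.93 ± 0.21, adjusted p = 0.03, all edgeR) rose. *Ddit3*, the stress-induced factor CHOP, fell by 0.75 ± 0.15 (adjusted p = 0.0187, edgeR). In the direct comparison of the edited groups 9 of the 26 were higher with the 5 gRNAs and 0 lower, beside 1.36% of all genes called higher, among them *Ddit3* (1.58 ± 0.15, adjusted p = 0.000221, edgeR) and *Stc2* (1.00 ± 0.10, adjusted p = 0.000364, edgeR), while none of the 10 enzymes was called there by edgeR. *Nupr1* (0.82 ± 0.10) and *Slc1a4* (0.85 ± 0.10) were both higher in that comparison at an adjusted p of 0.00168 by edgeR.

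**Figure D5:**
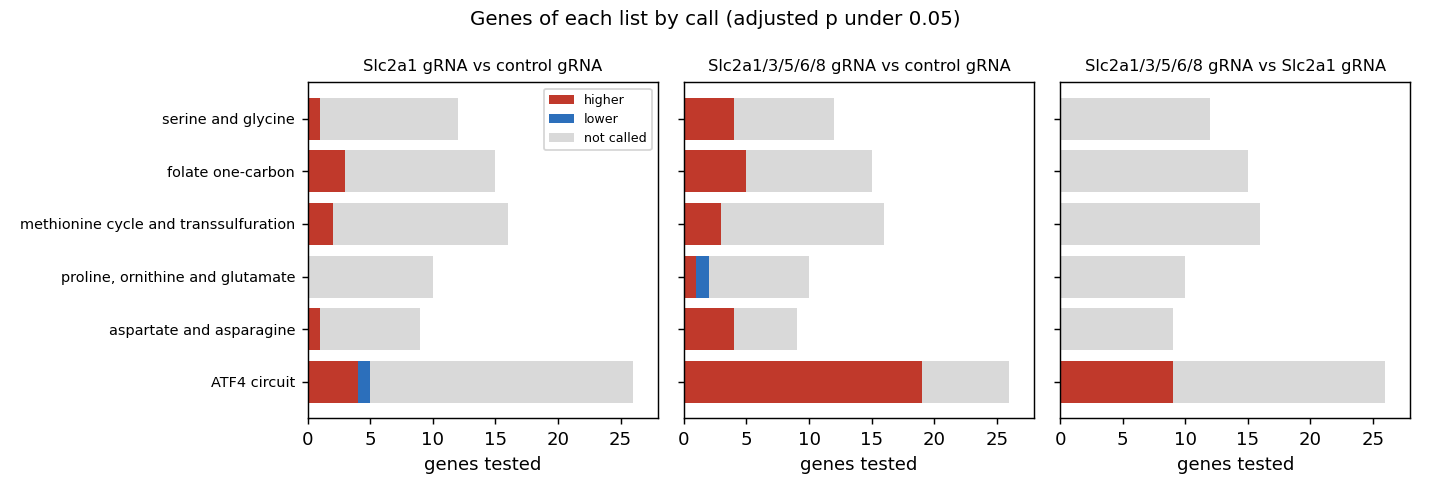
Number of tested genes in 6 gene lists that were called higher (red), lower (blue) or not called (grey) in each comparison. The ATF4 circuit list has 19 of 26 genes higher with the 5 gRNAs against control and 9 of 26 against the *Slc2a1* gRNA, where the other lists have 0.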

How the data were processed

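RNA from 9 cultures was analysed, grouped by the labels. The authors prepared cDNA from oligo-dT primers, sequenced paired reads and quantified them with Salmon (1.5.1 per the labels); they deposited estimated counts, TPM and effective lengths per gene. The annotation and strand setting are not given in the sources used here. After rounding, the counts of all 3 groups were fitted together in edgeR 4.0.16 under R 4.3.3 (TMM factors, default filter on low counts, quasi-likelihood test), with replicate number as a block since the study used a paired test. All 3 same-numbered pairs correlated at 0.11 or more in their deviations only between the *Slc2a1* gRNA and control groups. Intervals of 95% used the fit's degrees of freedom.

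The members and gene lists were chosen with earlier results of these data known. Genes named beside the 10 members were paralogs (1 of them is not reported here), *Atf4*, targeted genes, the 5 genes most like the members' mean, and up to 4 genes per list and comparison with the smallest adjusted p and at least 5 TPM. Cell type markers and *mt-Atp8* were named as checks of the samples, and the breakdown enzymes of the closing section were picked after their values were seen. Replicates differed by more than sampling noise (chi-squared per degree of freedom at least 21.2).

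On simulated data for the 5-gRNA comparison with 200 changed genes among 13545, edgeR recovered 163 and called 19 others, with 42 of 67 recovered at 1.5-fold, 56 of 67 at 2-fold and 65 of 66 at 4-fold. The 19 were false calls, on genes given no change. No replicate effect was simulated, so the setting was simpler than the real data. Alternatives were DESeq2 1.42.0, limma 3.58.1 on log2 TPM with a pseudocount of 1 or 0.1, total count scaling, an effective length offset, other filters, 2 groups only, a 2-fold threshold, no block, and each sample left out. Fits without mitochondrial genes were added after seeing the data. Motifs were searched in RefSeq promoter windows.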

Additional observations from a re-analysis of the deposited data

How the results depend on the processing

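Counts of called genes among the 10 depended on the setting, and the cause was not tested unless fewer samples or genes show it. With the *Slc2a1* gRNA 1 gene was called, with 4.64% of all genes called in either direction, against 3 with DESeq2 (9.07%), 2 without the replicate block (3.86%), 4 without the filter (5.47%), 2 with at least 10 counts in every sample (6.94%), 5 with only the 2 groups compared (16.7%), 0 to 3 with a sample left out (0.0773 to 8.88%), and 0 with the effective length offset (1.19%), a 2-fold threshold (0.766%) and each limma fit on TPM (0 to 0.376%). With the 5 gRNAs 5 were called (15.9% of all genes), against 0 with a 2-fold threshold (2.88%), 1 with each limma fit on TPM (3.13 to 4.78%), 1 to 7 with a sample left out (4.45 to 17.7%), and 4 to 7 otherwise (9.56 to 20.3%). Between the edited groups 0 were called (2.31%), against 1 with DESeq2 (5.61%). Same-numbered samples did not all correlate for the 5-gRNA comparisons (r from -0.11 to 0.16), so there the replicate block rests on the number alone; without it 5 and 0 genes were called, with *Psph* lost (adjusted p = 0.0663, edgeR) and *Shmt2* gained (adjusted p = 0.0451, edgeR) among the 5. Fitted signs turned for small changes. With the *Slc2a1* gRNA these were *Psat1* (-0.010 with total counts, -0.11 with either pseudocount, -0.063 on rescaled TPM), *Aldh18a1* (-0.059 and -0.060 with a pseudocount of 1 and 0.1, -0.0097 rescaled), *Pycr1* (-0.020 with total counts, -0.058 and -0.059 with a pseudocount of 1 and 0.1, -0.0088 rescaled, -0.016 to 0.14 with a sample left out, lowest without control replicate 3) and *Asns* (-0.022 with either pseudocount). Between the edited groups, with a sample left out, *Psat1* ranged from -0.036 to 0.22, *Psph* from -0.064 to 0.37, *Shmt2* from -0.019 to 0.20, *Mthfd2* from -0.046 to 0.12, *Pycr1* from -0.072 to 0.17, *Phgdh* from -0.037 to 0.20 and *Mthfd1l* from -0.25 to 0.094. Those of *Psat1*, *Psph*, *Shmt2*, *Mthfd2* and *Pycr1* were lowest without 5-gRNA replicate 3. With total counts 23.9% of *Slc2a1* gRNA calls over all genes were higher, against 48.4%, and 41.9% with the 5 gRNAs, against 53.3%. With the 5 gRNAs on log2(TPM + 1) it was 27.3%. Of 30 group levels, 23 moved by over 1 SD when given as TMM-scaled CPM per kb of effective length in place of TPM. These units are not scaled to the same total, so that count does not measure a change in level. The order of the 10 genes within each group was the same in both units. Of 756 counts of list genes called in a direction under alternatives, 628 were within 1.5 times the reported count and 128 were not.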

Other observations

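Some enzymes that break down the products of these pathways were near the floor of detection in control samples, while others, such as the asparaginase *Asrgl1* (6.38 ± 1.84 TPM) and the proline catabolism enzyme *Aldh4a1* (3.89 ± 0.83 TPM; SD, n = 3 for each), were not. *Gldc*, which cleaves glycine, was at 0.0951 ± 0.0568 TPM (SD, n = 3) and had between 2 and 10.1 estimated counts in the 9 samples. *Prodh*, which oxidises proline, was at 0.0676 ± 0.0672 TPM (SD, n = 3), with at most 8 counts in a sample. *Aspg*, an asparaginase, and *Tdh*, threonine dehydrogenase, reached 3 and 2 counts at most. *Aldh1l1*, which oxidises formyl folate in the cytosol, had at most 1 count, while its mitochondrial relative *Aldh1l2* was at 9.60 ± 1.30 TPM (SD, n = 3). *Gldc*, *Prodh*, *Aspg*, *Tdh* and *Aldh1l1* did not pass the filter on low counts and were not tested. These genes were picked from the lists after their values were seen.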
